A study of Mus musculus and Homo sapiens with 40 samples.

Results

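The unmarked core sites described here were 5519 regions bound by C/EBPα in every CEBPA peak list of the series and lying outside all peaks of 2 chromatin marks. They were selected on the measured peaks. Starting from the 47517 sites of anti-CEBPA in untreated p42 cells, sites were kept that overlapped by at least 1 bp a peak of anti-CEBPA in p30 cells (55.3% of all p42 anti-CEBPA sites did), of anti-ER in p42 cells (38.1%) and of anti-ER in p30 cells (48.5%). This left 13375 core sites. Of these, 12162 had a summit more than 1 kb from any start site of a protein-coding transcript (95% of all 47517 sites did), and 5519 of these distal core sites overlapped no peak in 4 lists of H3K27ac and 2 lists of H3K4me1 (68.1% of all 47517 sites overlapped none). The unmarked core sites were thus 11.6% of the p42 anti-CEBPA sites, 41.3% of the core and 45.4% of the distal core. They are compared below mainly with the 6643 distal core sites that overlapped a mark, called marked core sites.

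The lists come from ChIP-seq in HPC-7, a mouse haematopoietic progenitor line with very low endogenous CEBPA, transduced with a retroviral pMSCV vector that carried CEBPA p42-ERT2 or CEBPA p30-ERT2 and sorted for GFP. In these fusions the oestrogen receptor fragment ERT2 holds the factor inactive until 4-hydroxytamoxifen is added, which the methods of the study describe and the sample labels do not name. Each isoform was thus carried by 1 transduced line, so that isoform and line cannot be told apart. The anti-CEBPA antibody binds the C/EBPα portion of the fusion and anti-ER binds its ERT2 portion, each with 1 library per line. The anti-ER labels give untreated cells, while the anti-CEBPA labels name no treatment and are read here as untreated. H3K27ac lists were made from 3 pooled samples per line, untreated or with LPS at 100 ng/mL for 2 h, and H3K4me1 lists from 2 pooled samples per line, untreated. LPS is a bacterial cell wall component that activates inflammatory genes. No list has a replicate of its own, so that no test over samples was possible. Intervals given with percentages are 95% Wilson intervals, which cover counting error over sites and not the variation between experiments. The lists hold no read counts, so the depth behind a peak is unknown.

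C/EBPα is a basic leucine zipper factor that binds as a dimer to a palindromic sequence and drives the granulocyte and monocyte programme in blood as well as fat and liver genes. Its short isoform p30 lacks N-terminal activation domains but keeps the DNA-binding domain, and it predominates in leukaemia with N-terminal CEBPA mutations. H3K27ac is found at active promoters and enhancers and H3K4me1 at active and primed enhancers, so that a factor bound outside both lies in chromatin without the usual signs of an enhancer.

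The 8 unmarked core sites that stood highest in all 4 CEBPA lists at once are printed first, because their sequence shows what many of the strongest sites shared. Each line gives 101 bases centred on the p42 anti-CEBPA summit, 5′ to 3′ on the plus strand of GRCm39 (mm39), with the C/EBP core in capitals. The core was defined as 8 palindrome-like spellings, TTGCGCAA, TTGCGTAA, TTGCACAA, TTGCATAA, TTACGCAA, TTACGTAA, TTACACAA and TTACATAA, searched on both strands, of which TTGCGTAA and TTACGCAA are the same sequence read from opposite strands.
Fer site (chr17:64194126-64194226, plus strand): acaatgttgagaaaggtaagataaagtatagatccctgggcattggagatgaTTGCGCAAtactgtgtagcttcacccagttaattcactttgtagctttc
Sntg1 site (chr1:9002640-9002740, plus strand): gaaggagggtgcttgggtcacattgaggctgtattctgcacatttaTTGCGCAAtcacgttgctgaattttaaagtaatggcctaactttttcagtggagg
Atl3 site (chr19:7499160-7499260, plus strand): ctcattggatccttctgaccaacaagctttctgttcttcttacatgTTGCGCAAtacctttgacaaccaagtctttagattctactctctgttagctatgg
Brinp1 site (chr4:68799474-68799574, plus strand): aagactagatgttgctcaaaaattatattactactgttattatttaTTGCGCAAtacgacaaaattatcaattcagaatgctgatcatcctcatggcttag
Klhl1 site (chr14:97580313-97580413, plus strand): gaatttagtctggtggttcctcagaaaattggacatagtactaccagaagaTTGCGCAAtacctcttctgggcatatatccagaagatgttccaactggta
Med13l site (chr5:118592323-118592423, plus strand): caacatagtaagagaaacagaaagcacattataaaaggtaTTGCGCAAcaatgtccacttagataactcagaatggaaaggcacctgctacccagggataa
Dlgap1 site (chr17:70742193-70742293, plus strand): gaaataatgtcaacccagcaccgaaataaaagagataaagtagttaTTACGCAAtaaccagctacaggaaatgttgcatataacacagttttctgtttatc
Slco6d1 site (chr1:98721214-98721314, plus strand): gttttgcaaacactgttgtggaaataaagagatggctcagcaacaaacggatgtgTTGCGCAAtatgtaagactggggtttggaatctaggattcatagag
All 8 held 1 core within the 200 bp around the summit. In 7 of the 8 the spelling was the full palindrome TTGCGCAA, and at the Dlgap1 site it was TTACGCAA, the reverse complement of TTGCGTAA. On one strand or the other, each of the 8 therefore held the half-site TTGCG, which ends in a CpG. The 32 bp at the summit occurred once in the genome at each of them.

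The Fer site lay in an intron of Fer, a cytoplasmic tyrosine kinase gene, 8841 bp upstream of the nearest start, with fold enrichments of 128 for anti-CEBPA in p42, 87.6 for anti-CEBPA in p30, 198 for anti-ER in p42 and 224 for anti-ER in p30. At the Sntg1 site, in an intron of a syntrophin gene, the same order gave 104, 89.6, 138 and 141. At the Atl3 site, in an intron of an atlastin gene of the endoplasmic reticulum, it gave 111, 102, 144 and 151. These were among the strongest peaks of each list: the Fer site ranked 2, 6, 7 and 9 in the 4 lists. The Brinp1 site, in an intron of a neural gene, had folds of 114, 107, 128 and 152 and lay 1318256 bp from the nearest mark peak. The Klhl1 site, between genes, had folds of 103, 96.1, 127 and 150. The Med13l site lay 105974 bp upstream of the start of Med13l, a Mediator subunit gene, with folds of 116, 93.6, 116 and 154, and only 57 bp from a mark peak. The strongest unmarked sites were thus found both far from marked chromatin and at its edge. The Dlgap1 site, in an intron of a postsynaptic scaffold gene, had folds of 115, 109, 121 and 130. The Slco6d1 site, between genes, had folds of 66.0, 112, 131 and 132 and was the only one of the 8 with a lower anti-CEBPA fold in p42 than in p30.

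The 2 antibodies ordered the unmarked and marked core sites in opposite ways. With anti-CEBPA the unmarked core sites had the higher folds, with a median of 18.2 in p42 (quartiles 12.5 and 27.7) and 14.7 in p30 (9.81 and 22.8), against 11.7 (8.04 and 18.3) and 9.81 (6.98 and 15.2) at marked core sites. With anti-ER they had the lower folds, with a median of 8.08 in p42 (6.04 and 12.5) and 10.4 in p30 (7.56 and 16.2), against 10.6 (7.09 and 16.6) and 13.2 (8.81 and 21.0). Because fold scales are not comparable between lists, places within each list were also taken. The median unmarked site stood at the strongest 10.8% of the p42 anti-CEBPA list and 16.4% of the p30 one, but at 43.2% and 28.1% of the anti-ER lists. The median marked site stood at 22.7%, 30.7%, 26.9% and 17.7%. Presence in all 4 lists was part of the selection, and absence of a mark the other, so these folds describe the sites and were not tested.

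**Figure D1:**
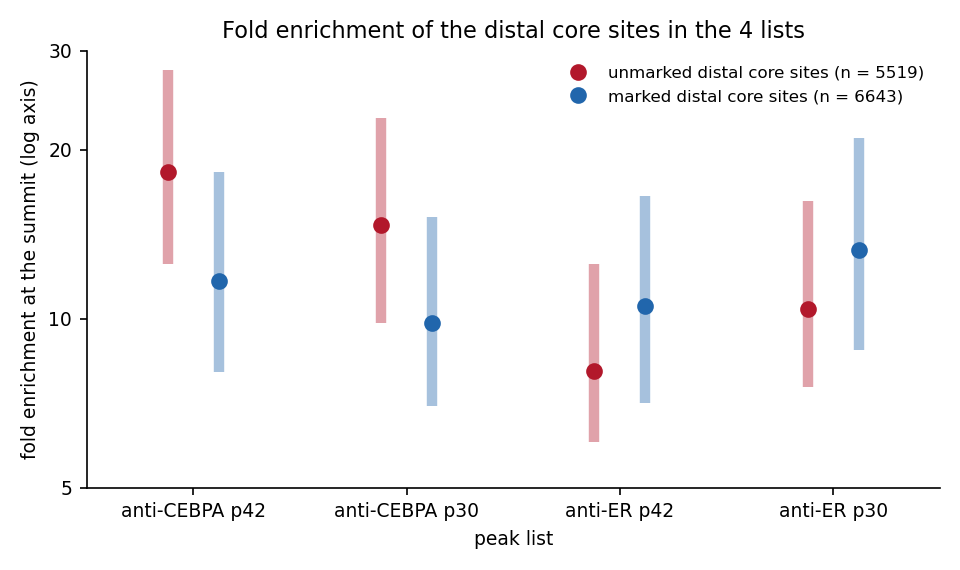
Fold enrichment at the summit (log axis) of unmarked (red, n = 5519) and marked (blue, n = 6643) distal core sites in each of the 4 CEBPA lists, with medians as points and quartiles as bars. The red medians of 18.2 and 14.7 lie above the blue ones in the anti-CEBPA lists, and the red medians of 8.08 and 10.4 lie below them in the anti-ER lists.

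The same reversal held in both lines. The anti-CEBPA fold exceeded the anti-ER fold at 95.02% (94.4 to 95.6) of unmarked sites in p42 cells and at 58.2% (57.0 to 59.3) of marked sites, and in p30 cells at 79.8% (78.7 to 80.8) and 31.7% (30.6 to 32.9). The scale of each list sets these shares, and only the gap between the classes is read. In the strongest decile of the p42 anti-CEBPA list, 61.4% (59.9 to 62.8) of the distal core sites were unmarked, and in its weakest decile 12.4% (8.57 to 17.7). In the p42 anti-ER list the share ran the other way, from 32.4% (30.4 to 34.5) in the strongest decile to 62.9% (59.6 to 66.1) in the eighth and 58.2% (52.5 to 63.7) in the weakest. The p30 lists gave 62.3% falling to 15.3% with anti-CEBPA, and 32.1% rising to 60.6% in the sixth and ninth deciles with anti-ER before 42.4% (31.2 to 54.4) of 66 sites in the weakest. The anti-CEBPA lists carried no sign of the peak calling setting without a shifting model that the anti-ER lists carried. The part of the antibody, of peak calling and of input in this difference was not tested.

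**Figure D2:**
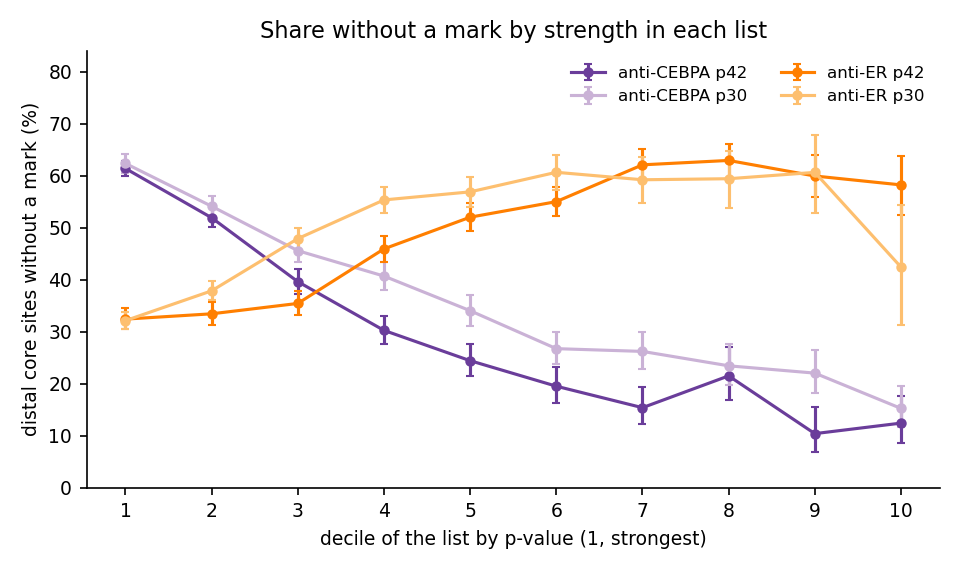
Share of distal core sites without a mark (%, 95% Wilson intervals) in each decile of the 4 CEBPA lists, ordered by p-value with the strongest decile at 1. The share falls from 61.4% to 12.4% along the p42 anti-CEBPA list and rises from 32.4% to 58.2% along the p42 anti-ER list.

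Values were also taken by the number of mark lists with a peak at the site. From no mark list to all 6, the median p42 anti-CEBPA fold went from 18.2 to 11.1, the median p42 anti-ER fold from 8.08 to 11.3, and the share of sites with a C/EBP core from 61.0% to 34.4%. The 654 sites with a peak in 1 mark list lay between, at 13.9, 8.50 and 49.4%. The steps were not even, since the lowest anti-CEBPA fold (10.6) and core share (32.7%) were at 5 lists. In p30 cells the median anti-CEBPA fold went from 14.7 without a mark list to 9.78 with all 6, and the anti-ER fold was 10.4 without a mark list, 10.2 with 1, 10.3 with 2 and 14.9 with all 6. Among sites just inside and outside the selection, the 58 members 1000 to 1500 bp from a start had a median p42 anti-CEBPA fold of 17.0, and the 60 unmarked core sites 500 to 1000 bp from a start had 16.1. The 201 members with a mark peak up to 100 bp from their edge had a median of 12.0045, and the 477 marked sites with none but weak mark peaks (q-value of 1e-05 or more) had 14.8.

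Unmarked core sites held the C/EBP core more often than the other classes of site compared here. A core lay within the 200 bp around the summit at 61.0% (59.7 to 62.3) of unmarked sites, at 38.4% (37.3 to 39.6) of marked sites, at 35.2% (32.6 to 37.9) of core sites near a start and at 39.9% (39.4 to 40.4) of p42 anti-CEBPA sites outside the core, and at 42% of all p42 anti-CEBPA sites. A gap between sites without and with a mark was also seen among distal p42 anti-CEBPA sites that were not core sites. There a C/EBP core was at 43.4% (42.8 to 44.0) of those without and 28.2% (27.1 to 29.2) of those with a mark. Windows of the same size 5 kb to either side of the unmarked core sites held a C/EBP core at 3.75% (3.41 to 4.12). The same 8 spellings read backwards, which keep the base composition, were found at 6.29% (5.68 to 6.96) of unmarked sites and 4.21% (3.86 to 4.61) of these windows. The core sat under the summit, at a median of 6 bp from it in unmarked and 9 bp in marked sites with a core, and within 25 bp at 91.0% (90.04 to 91.97) and 77.2% (75.6 to 78.8). The summits of the 4 lists also lay closer together at unmarked sites, with the p42 anti-ER summit within 25 bp of the p42 anti-CEBPA summit at 90.7% (89.9 to 91.4) against 74.9% (73.9 to 75.9).

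**Figure D3:**
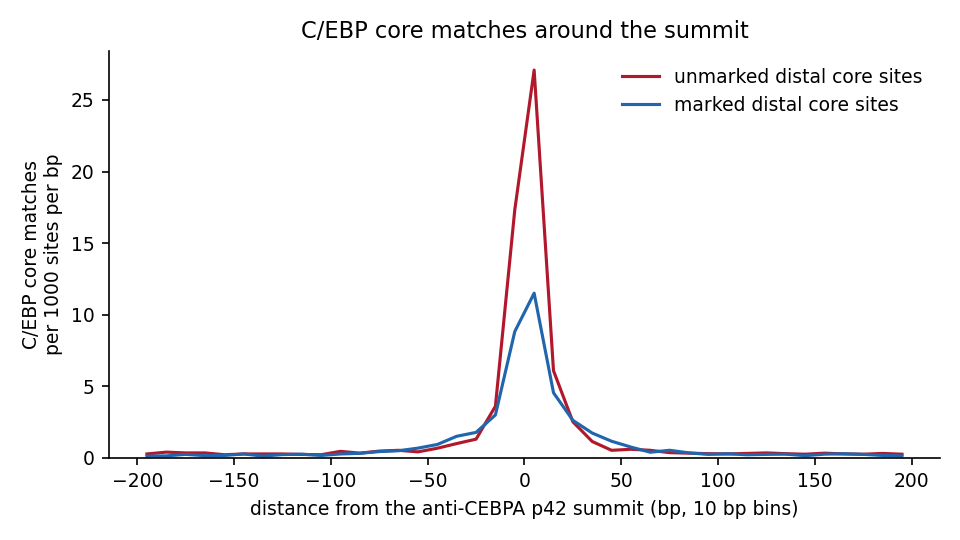
C/EBP core matches per 1000 sites per bp by distance from the p42 anti-CEBPA summit (bp, 10 bp bins) at unmarked (red) and marked (blue) distal core sites. Both curves peak in the bin centred 5 bp from the summit, at 27.1 in unmarked and 11.5 in marked sites.

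Core shares were also taken within deciles of the p42 lists, ordered by p-value, and within bands of base composition. The anti-ER deciles and the bands were chosen after the data were seen. The order comes from lists used in the selection. Over all, the core was at 61.0% of unmarked and 38.4% of marked sites. In the strongest decile of the p42 anti-CEBPA list the gap was narrower, at 67.7% (65.9 to 69.5) and 57.6% (55.2 to 60.0), and in the strongest decile of the p42 anti-ER list the shares were 79.6% (76.4 to 82.5) and 50.9% (48.3 to 53.6). The unmarked share was the higher in all 10 deciles of both lists. GC content moved with the class, with a median of 39% in unmarked and 45.5% in marked windows, and 41% and 44.5% in the windows 5 kb away. At p42 anti-CEBPA sites outside the core the median was 38.5%. Within bands of GC content the shares were 64.6% and 54.2% below 35% GC, and 52.4% and 33.5% at 50% GC or more, with the unmarked share the higher in every band.

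In relative terms, spellings with a CpG differed most. TTGCGCAA was at 9.06% (8.33 to 9.85) of unmarked and 2.71% (2.35 to 3.13) of marked sites, and at 3 of 11034 windows 5 kb away. TTGCGTAA was at 14.5% (13.6 to 15.5) and 5.16% (4.66 to 5.72), and TTACGTAA at 3.37% (2.93 to 3.88) and 1.45% (1.18 to 1.76). Without a CpG, TTGCACAA was the most frequent spelling, at 26.5% (25.4 to 27.7) and 17.5% (16.6 to 18.4). TTGCATAA went the other way, at 3.55% (3.09 to 4.07) of unmarked and 5.07% (4.57 to 5.63) of marked sites, as did TTACACAA at 4.75% (4.22 to 5.34) and 6.58% (6.01 to 7.200). Unmarked sites with TTGCGCAA also had the highest folds of any spelling, with medians of 32.4 and 32.3 for anti-CEBPA and 19.5 and 23.8 for anti-ER in p42 and p30. Those with TTGCACAA had 17.3, 13.5, 7.45 and 9.60.

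The pattern went beyond the listed spellings. Among all other words of 8 letters that share no 6 letters with one of them, those most frequent at unmarked sites relative to the windows 5 kb away were mostly further spellings with TTGCG. They included TTGCGAAA at 11.1% of unmarked and 3.78% of marked sites, ATTGCGAA at 7.79% and 1.91%, and TGTCGCAA, whose reverse complement is TTGCGACA, at 6.98% and 2.81%. Of the 10 highest, 7 held TTGCG, 2 (ATTTCGCA and ATGTCGCA) held TGCGA on their other strand, and CGTAATAC, at 1.11% and 0.602%, held neither. Of the 2152 unmarked sites without a listed core, 26.7% held TTGCGAAA. The half-site TTGCG was therefore counted on its own, a measure chosen after these words were seen. It was at 47.6% (46.3 to 49.0) of unmarked sites, 22.6% (21.6 to 23.6) of marked sites, 39.2% (36.5 to 42.02) of core sites near a start and 13.5% (13.2 to 13.9) of sites outside the core, and at 3.39% (3.07 to 3.74) of the windows 5 kb away. The half-sites that end in another base did not show this: TTGCA was at 58.1% (56.8 to 59.4) of unmarked and 60.9% (59.7 to 62.0) of marked sites, TTGCT at 46.1% (44.8 to 47.4) and 54.0% (52.8 to 55.2), and TTGCC at 29.5% (28.3 to 30.8) and 39.0% (37.9 to 40.2).

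Within the unmarked sites the half-site went with strength. Of the 100 members best placed in all 4 lists, 94 held TTGCG and 72 held TTGCGCAA. Of the best placed 1000, 80.6% (78.0 to 82.9) held TTGCG, and of the worst placed 1000, 25.4% (22.8 to 28.2). In the strongest decile of the p42 anti-CEBPA list TTGCG was at 59.9% (58.0 to 61.8) of unmarked and 37.7% (35.4 to 40.1) of marked sites. In its weakest decile the shares were 20.0% (8.86 to 39.1) and 13.1% (8.87 to 18.8), with overlapping intervals. The gap was wider in the strongest decile of the p42 anti-ER list, at 86.4% (83.5 to 88.8) and 30.7% (28.4 to 33.2). In the weakest decile of that list the shares were 25.9% (19.9 to 32.9) and 13.1% (8.24 to 20.2). The 2629 unmarked sites with TTGCG had median folds of 21.7 and 19.1 in the p42 and p30 lists of anti-CEBPA, and 10.1 and 13.1 in those of anti-ER. The 950 unmarked sites with neither the half-site nor a listed core had 14.3, 10.7, 6.48 and 8.20. At marked sites the half-site also went with the anti-CEBPA fold. Sites with TTGCG had medians of 15.7 in p42 and 13.1 in p30, and sites with neither had 9.84 and 8.50. With anti-ER the spread at marked sites was narrower, with 11.997 in p42 for sites with TTGCG and 9.84 for sites with neither. The share of TTGCG rose with GC content among unmarked sites, from 34.6% (32.2 to 37.0) below 35% GC to 65.4% (60.2 to 70.3) at 50% or more, and was 24.8% (20.3 to 30.0) and 26.1% (24.0 to 28.3) at marked sites. Among distal p42 anti-CEBPA sites outside the core, the half-site was at 13.6% (13.2 to 14.0) of those without and 11.8% (11.1 to 12.6) of those with a mark.

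**Figure D4:**
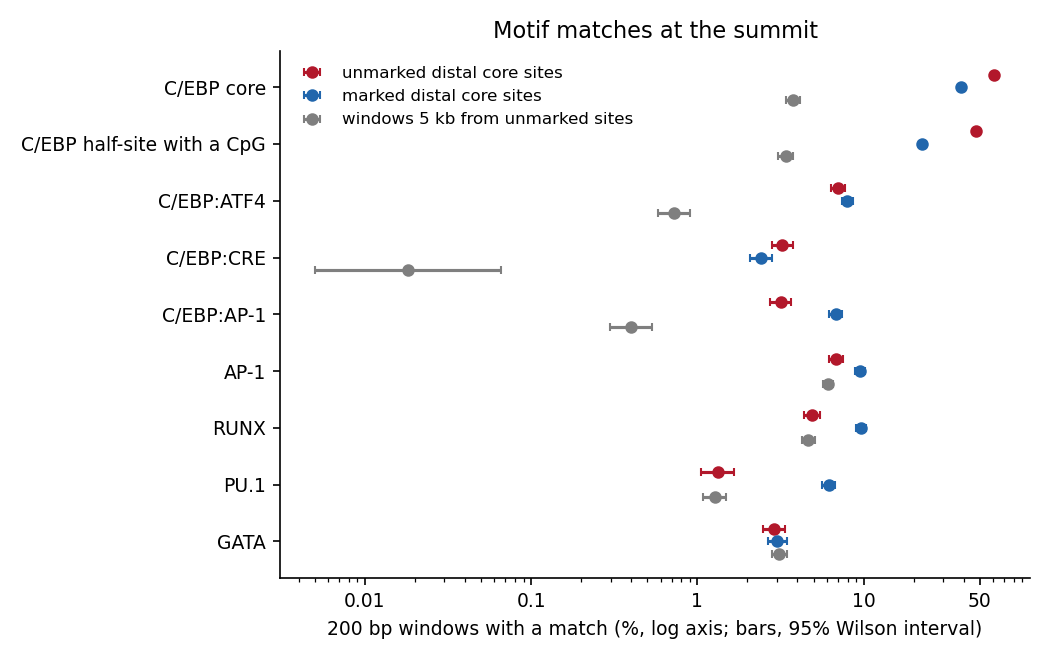
Share of 200 bp windows with a motif match (%, log axis, 95% Wilson intervals) at unmarked (red) and marked (blue) distal core sites and in windows 5 kb from unmarked sites (grey). The half-site with a CpG is at 47.6%, 22.6% and 3.39%, and the PU.1 motif at 1.32%, 6.16% and 1.27%.

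The PU.1, RUNX, AP-1 and GATA motifs were about as frequent at unmarked sites as in the windows 5 kb away. PU.1, the factor that works with C/EBPα in myeloid cells, had its motif GAGGAAGT at 1.32% (1.05 to 1.66) of unmarked sites, 6.16% (5.60 to 6.76) of marked sites and 1.27% (1.08 to 1.495) of windows 5 kb from unmarked sites. The RUNX motif AACCACA was at 4.89% (4.35 to 5.49), 9.63% (8.95 to 10.4) and 4.66% (4.28 to 5.07). The AP-1 motif TGANTCA, bound by Fos and Jun dimers, was at 6.79% (6.16 to 7.49), 9.51% (8.83 to 10.2) and 6.11% (5.68 to 6.57). For PU.1, RUNX and AP-1 the marked share was the higher in all 5 bands of GC content, for AP-1 with overlapping intervals in most bands. The GATA motif AGATAAG was at 2.88% (2.47 to 3.36) and 3.03% (2.64 to 3.47), with overlapping intervals, and at 3.11% (2.80 to 3.45) of windows 5 kb from unmarked sites. At p42 anti-CEBPA sites outside the core the shares were 1.75% for PU.1, 4.89% for RUNX, 6.94% for AP-1 and 2.75% for GATA. The NF-kB motif GGGNNTTCC was at 1.21% (0.957 to 1.54) of unmarked and 2.30% (1.97 to 2.69) of marked sites, and at 1.81% (1.58 to 2.08) of those windows. The STAT motif TTCNNNGAA was at 6.74% (6.11 to 7.43), 5.75% (5.22 to 6.34) and 7.84% (7.35 to 8.36), and the IRF motif TTTCNNTTT at 13.2% (12.4 to 14.2), 10.7% (9.94 to 11.4) and 13.3% (12.7 to 13.9). Motifs joining a C/EBP half-site to a half-site of another leucine zipper factor behaved differently from one another. The C/EBP:AP-1 motif TGTTGCAA was at 3.17% (2.74 to 3.67) of unmarked and 6.804% (6.22 to 7.44) of marked sites, the C/EBP:ATF4 motif TGATGCAA at 7.01% (6.37 to 7.72) and 7.99% (7.37 to 8.67), and the C/EBP:CRE motif TGACGCAA, which holds TTGCG on its other strand, at 3.24% (2.81 to 3.74) and 2.42% (2.08 to 2.82). All 3 exceeded the windows 5 kb from unmarked sites, which held 0.399%, 0.725% and 0.0181%. The oestrogen response element, the motif of the receptor from which ERT2 derives, was at 2 of the 5519 sites. A match is a stretch of letters and does not show that the factor binds there.

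Most unmarked sites held a single core. There were 3146 with 1 core, 208 with 2 and 13 with 3 or more. Median p42 anti-CEBPA folds were 16.3 without a core, 19.7 with 1, 22.3 with 2 and 23.5 with 3 or more, while p42 anti-ER folds were 7.44, 8.64, 8.45 and 8.02. The member with the most cores, 4, lay 36131 bp from the start of Gpr63, a G protein-coupled receptor gene, in an exon of it or of the overlapping Gm11906. It had modest folds of 10.0, 6.98, 5.76 and 5.88, and the 32 bp at its summit occurred 4 times in the genome. It is printed with the unmarked sites most inclined to p42 and to p30, which lacked a listed core, as a contrast to the sequences above.
Gpr63 site (chr4:25009500-25009600, plus strand): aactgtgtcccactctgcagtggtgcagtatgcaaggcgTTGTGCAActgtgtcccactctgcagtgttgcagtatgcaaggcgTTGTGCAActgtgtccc
Rnf7l site (chr10:63251776-63251876, plus strand): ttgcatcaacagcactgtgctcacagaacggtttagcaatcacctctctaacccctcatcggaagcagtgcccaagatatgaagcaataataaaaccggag
Iffo2 site (chr4:139231202-139231302, plus strand): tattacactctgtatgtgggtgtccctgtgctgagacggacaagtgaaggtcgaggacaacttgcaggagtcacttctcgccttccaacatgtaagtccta
The printed Gpr63 window held 2 of its 4 cores. The printed Rnf7l window began with TTGCATCA, the reverse complement of the C/EBP:ATF4 motif TGATGCAA. Unmarked sites were as unique in sequence as marked ones: the 32 bp at the summit occurred once in the genome at 95.5% (94.97 to 96.1) of unmarked and 95.8% (95.3 to 96.3) of marked sites, and at 85.9% (84.97 to 86.8) of windows 5 kb away. They occurred more than 10 times at 1.88% (1.56 to 2.28) and 2.08% (1.76 to 2.45).

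Few unmarked core sites leaned to the same isoform with both antibodies, and the antibodies did not give the same order of preference. The log2 ratio of p42 to p30 fold had a median of 0.26 (quartiles -0.06 and 0.61) for the CEBPA antibody and of -0.33 (-0.57 and -0.09) for the ER antibody. These medians depend on the scale of each list. Across the 5519 unmarked sites the 2 ratios had a Spearman rho of 0.0227, against 0.373 across the 6643 marked sites. Sites of 1 library share its noise and depth, and no p is given. A fold at least 2-fold higher in p42 with both antibodies was seen at 9 unmarked sites (0.163%, 0.0858 to 0.310), while 0.763% of all core sites met this. A fold at least 2-fold higher in p30 with both was seen at 5 (0.0906%, 0.0387 to 0.212), against 0.516% of all core sites. At marked sites the counts were 89 (1.34%, 1.09 to 1.65) and 51 (0.768%, 0.584 to 1.01). By the CEBPA antibody alone, 461 unmarked sites (8.35%) were at least 2-fold higher in p42 and 37 (0.670%) in p30, while 9.85% and 2.15% of all core sites were. By the ER antibody alone the counts were 21 (0.381%) and 226 (4.09%), against 1.32% and 9.46% of all core sites.

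The unmarked site most inclined to p42 lay 5742 bp from the start of Rnf7l, with anti-CEBPA folds of 20.6 in p42 and 5.59 in p30 and anti-ER folds of 13.7 and 4.62. Others were near Pik3r1, a regulatory subunit of PI3 kinase, with 16.3, 5.56, 14.9 and 5.04, and near Rrp15, a ribosome biogenesis gene, with 20.8, 6.74, 12.8 and 5.14. The nearest mark peak was 298, 1356 and 10 bp away. The site most inclined to p30 was near Iffo2, with folds of 4.80 and 11.8 in the anti-CEBPA lists and 4.56 and 10.7 in the anti-ER lists, at 210 bp from a mark peak. The site near Rlim, a ubiquitin ligase gene on the X chromosome, had 4.17, 9.78, 5.90 and 13.4 at 4 bp from a mark peak. The strongest of the p30-inclined sites lay in an exon of Aknad1, with 30.8, 71.2, 28.9 and 63.5, and 6892 bp from a mark peak.

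**Figure D5:**
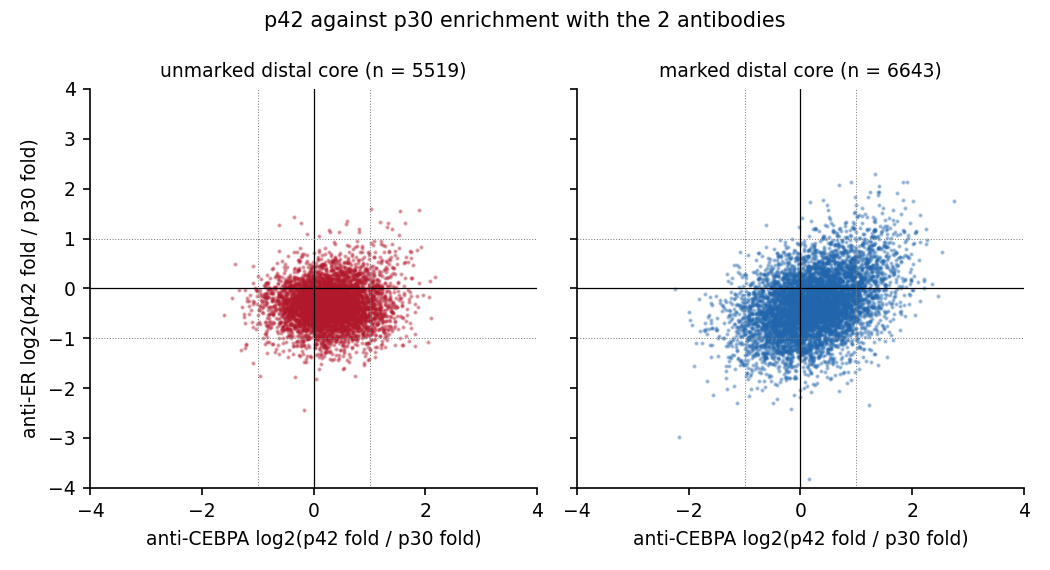
log2 ratio of p42 to p30 fold with anti-CEBPA (x axis) and with anti-ER (y axis), 1 point per site, for unmarked (left, n = 5519) and marked (right, n = 6643) distal core sites, with dotted lines at a 2-fold difference. The unmarked sites form a round cloud (Spearman rho 0.0227) and the marked sites a tilted one (0.373).

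Unmarked core sites lay mostly far from any mark and from gene starts. The nearest mark peak was a median of 63537 bp away (quartiles 5973 and 301178), within 1 kb at 12.8% of sites and more than 10 kb away at 70.4%. For the lists taken singly, the median gap ranged from 90350 bp to H3K27ac in p30 cells with LPS to 125504 bp to H3K4me1 in p42 cells. The pair farthest from a mark peak was mapped to chromosome Y, which held 6 members. HPC-7 is given as a female line in the study's reporting summary, so that the members on this chromosome are in doubt. Elsewhere the farthest was a site on chromosome 15 in an intron of 4921515E04Rik, 5137288 bp from a mark peak, with folds of 16.8 and 12.6 in the anti-CEBPA lists and 10.1 and 14.9 in the anti-ER lists. The nearest protein-coding start was a median of 65099 bp away, against 19240 bp for marked sites, and over 100 kb away at 40.4% (39.1 to 41.7) against 12.04% (11.3 to 12.8). Summits lay between genes at 41.5% (40.2 to 42.8) against 24.7% (23.7 to 25.8), in introns at 51.3% (49.9 to 52.6) against 63.5% (62.3 to 64.6) and in exons at 7.27% (6.61 to 7.98) against 11.8% (11.1 to 12.6). Unmarked core sites were also seldom close to one another: another unmarked core site lay within 10 kb of 4.69% (4.17 to 5.28). In contrast, 25.03% (24.0 to 26.1) of marked sites had a marked neighbour within that distance. Only neighbours of the same class were counted, so other CEBPA sites can lie nearby. Distance to a start was part of the selection for both classes.

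Across chromosomes the unmarked sites numbered 3.15 per Mb on chromosome 1 and 3.18 on chromosome 17 at the upper end, 0.637 on X and 0.0656 on Y. X also had fewer p42 anti-CEBPA sites of any kind, 5.75 per Mb against 15.8 on chromosome 7 to 26.7 on chromosome 17 among the autosomes. On chromosome 11, which had the most p42 H3K27ac peaks per Mb at 81.6, 33.5% (29.9 to 37.3) of distal core sites were unmarked, the smallest share of any chromosome. On chromosome 3, with 35.1 such peaks per Mb, it was 51.0% (47.2 to 54.7). H3K27ac peaks were part of the selection, so these shares describe the sites and were not tested.

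The genes next to unmarked sites had H3K27ac at their start less often than those next to marked sites. A start of the nearest gene had an H3K27ac peak within 1 kb, in untreated p42 or p30 cells, at 40.6% (39.3 to 41.9) of unmarked and 83.7% (82.8 to 84.6) of marked sites, while 53.8% of all 21562 protein-coding genes had one. At 1 to 10 kb from the start the shares were 41.4% (38.1 to 44.7) and 89.6% (88.2 to 90.8), and beyond 100 kb 35.3% (33.4 to 37.3) and 70.9% (67.6 to 73.9). These shares count sites, while the 53.8% counts genes. Absence of an H3K27ac peak was part of what set the 2 classes apart, so the shares describe the sites and were not tested. The unmarked sites were nearest to 3397 genes, 15.8% of all, and 141 genes were nearest to 5 or more. Efna5, an ephrin gene, was nearest to 23, more than any other gene, followed by Ncam2, a neural adhesion gene, with 17. Adgrl3, Cadm2 and Tenm3, all genes of synaptic adhesion or neural wiring, had 15 each. Of these named genes Efna5 alone was nearest to a marked site, with 1, and none had H3K27ac at its start. These genes hold long stretches of the genome: Efna5 was the nearest gene over 2240 kb and the median gene over 46.7 kb. Per Mb of the genome nearest to it, Efna5 had 10.3 unmarked sites, Ncam2 6.02, Adgrl3 5.60, Cadm2 6.37 and Tenm3 5.27, against 2.03 over all genes. The genes were named for their number of unmarked sites, so that choice itself favours a high density, and the difference was not tested.

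Gene lists were described by how many of their genes were nearest to a member, set beside the 15.8% of all genes that were nearest to an unmarked site and the 18.1% that were nearest to a marked one. None of 20 neutrophil granule genes, which C/EBPα activates in granulocyte precursors, was nearest to an unmarked site (0%, 0 to 16.1), an interval that holds the share of all genes, and 8 were nearest to a marked one. The stretch of genome nearest to each gene of this list had a median of 27.3 kb, against 46.7 kb over all genes. Among 20 blood stem and progenitor factors, 6 were nearest to an unmarked and 14 to a marked site, and 17 had H3K27ac at a start. Meis1 had 6 unmarked and no marked sites, while Runx1 had 1 unmarked and 17 marked sites. The best placed site of this list lay in an intron of Erg, a stem cell factor gene, with folds of 63.3 and 67.4 in the anti-CEBPA lists and 35.5 and 61.5 in the anti-ER lists, 541 bp from a mark peak. Another lay in an exon of Evi5, 19138 bp upstream of Gfi1, a transcriptional repressor gene, with folds of 52.3, 28.1, 16.0 and 19.8.

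Of 18 AP-1 family genes, 3 were nearest to an unmarked and 12 to a marked site. The unmarked site near Fos, an immediate early AP-1 gene, lay 41758 bp upstream of its start with folds of 45.0, 50.7, 22.7 and 29.8, just 5 bp from a mark peak. The best placed site with Maf as its nearest gene lay 611895 bp from its start, in an intron of Wwox. It had 48.0, 53.5, 27.8 and 35.1. Of 10 C/EBP family and Tribbles genes, Trib2 alone was nearest to unmarked sites, with 5 over 1219 kb, and 5 genes were nearest to marked sites. All 10 had H3K27ac at a start. Of 24 matched inflammatory cytokine and chemokine genes, 6 were nearest to an unmarked and 10 to a marked site. The Cxcl5 site, 5309 bp upstream of this neutrophil chemokine gene, had folds of 40.6, 61.5, 48.5 and 47.9 without a listed core and lay 502 bp from a mark peak. Of 20 macrophage and dendritic genes, 4 were nearest to an unmarked and 12 to a marked site. Among the 4 was Msr1, a scavenger receptor gene, whose site lay 104262 bp from its start and had 47.1, 48.9, 19.4 and 24.8. Per Mb of the genome nearest to them, AP-1 genes had 2.88 unmarked and 10.7 marked sites, against 2.03 and 2.44 over all genes. The values were 2.42 and 7.74 for C/EBP and Tribbles, 5.06 and 10.1 for cytokine and chemokine, and 2.32 and 6.10 for macrophage and dendritic genes.

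Lists of genes of other tissues gave shares on both sides of that of all genes. Of 20 neuron genes, 14 were nearest to an unmarked site and 4 to a marked one, and 1 had H3K27ac at a start. Their 71 unmarked sites came to 2.16 per Mb of the genome nearest to these genes, close to the 2.03 per Mb over all genes, whereas their 10 marked sites came to 0.305 per Mb against 2.44. The best placed was in an intron of Csmd3, with folds of 66.7, 64.3, 42.9 and 49.4, and lay 1191850 bp from a mark peak. Of 20 T and B cell genes, 3 (15%) were nearest to unmarked sites and none to a marked one. The site in an intron of Ebf1, the B cell factor gene, had anti-CEBPA folds of 67.2 and 50.2 but anti-ER folds of 7.92 and 12.4. The site 119163 bp from the start of Gata3, the T cell factor gene, had 59.8, 51.0, 49.4 and 60.1. Of 19 matched liver genes, 2 (10.5%) were nearest to unmarked sites and 3 to a marked one. Apob had 6 unmarked sites over the 1433 kb nearest to it and Cps1 had 5 over 1034 kb, and neither had a marked site. The Cps1 site lay 440402 bp from the start of this gene, which encodes the first enzyme of the urea cycle. It had folds of 63.9, 41.9, 19.8 and 25.1 and held no listed core. Of 20 fat genes, 5 were nearest to unmarked and 5 to marked sites. The site 20424 bp upstream of Pparg, the master regulator gene of fat cells, had folds of 55.2, 52.8, 29.8 and 36.9 and lay 2670 bp from a mark peak. Nearest genes were assigned by distance alone, which does not show that a site acts on a gene.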

How the data were processed

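ChIP-seq peak lists from HPC-7 cells were used, with groups taken from the sample labels. As the methods of the study state, the authors trimmed reads with Trim Galore (0.6.6), aligned them to mm39 with Bowtie2, excluded duplicates with Picard and called narrow peaks with MACS2 against input. Mark lists were called on pooled samples. The deposited lists give a fold enrichment (ratio) over local background at the summit and the −log10 of a p-value and of a q-value, with no q-value above 0.05. The authors' values were compared across sites within a list, and peaks were ranked by p-value. The ATF4 list of a human line was not used.

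Peaks on chromosomes 1 to 19, X and Y were kept. Start sites were those of protein-coding transcripts in GENCODE vM39, and sequence was read from GRCm39. Members, gene lists and motifs were chosen with earlier results of these data known. Named sites were the 8 best by their worst place in the 4 lists, the 3 most inclined to each isoform with both antibodies, those farthest from a mark, those with most cores, and up to 2 per gene list. Of the genes nearest to most members, 1 is not reported here. Motifs were searched in 200 bp on both strands. Of 19 motifs searched, those with no bearing on C/EBP or on the main blood factors are not reported. The overlap, distance and motif steps were tested on simulated peaks. Python 3.11.15, numpy 2.4.6, pandas 2.3.3 and scipy 1.17.1 were used.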

Additional observations from a re-analysis of the deposited data

How the results depend on the processing

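No paired analysis was possible because each CEBPA list comes from 1 library and each mark list from pooled samples, so that no replicate could be left out either. Over 11 alternatives, of which the use of gene starts in place of transcript starts was chosen after seeing the data, the number of unmarked core sites ranged from 4475 (reciprocal overlap of 50% among CEBPA lists) to 5996 (only mark peaks with q-values under 1e-05), always within 1.5 times the 5519 reported, and the Spearman rho between the 2 antibodies' isoform ratios from 0.00188 to 0.0398. The share of distal core sites without a mark left its interval of 44.5 to 46.3% in 10 of 11: it was 46.5% with CEBPA q-values under 1e-05, 49.3% with strict mark peaks, 46.4% with CEBPA summits within 100 bp, 43.1% with reciprocal overlap, 39.6% with no mark peak within 1 kb, 46.5% with untreated mark lists only, 46.9% with summits more than 2500 bp from a start, 47.9% with starts of any transcript type, 50.4% with equal numbers of best-ranked peaks per list, and 44.3% with gene starts. The share with a C/EBP core moved to 62.5% with reciprocal overlap, 62.6% with equal numbers of peaks, and 58.9% and 63.1% in windows of 100 and 400 bp. The share between genes moved to 43.7% with no mark peak within 1 kb and 42.9% with starts of any transcript type. The share with TTGCG, a result added after the data were seen, moved to 50.8% with reciprocal overlap, 49.1% with no mark peak within 1 kb, 50.6% with equal numbers of peaks and 49.5% in 400 bp. The cause of these shifts was not tested. The planned share of sites in repeats was not run, because the genome used here carries no repeat masking, and the uniqueness of 32 bp was added in its place. Depth is unknown, so a site without a mark peak is one at which none was called.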
